A study of Mus musculus with 74 samples.

Results

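Brown adipose tissue was compared with liver in male B6C3F1 mice, a hybrid laboratory strain, that had received vehicle alone for 15 days. The 10 arrays were the vehicle arrays of the troglitazone study on day 15, chosen by the tissue, agent and time in the labels out of 74 arrays in the series. Brown fat came from mice 41 to 45 and liver from mice 42 to 46, so there were 5 arrays of each tissue and 4 mice gave both. The series followed mice given fenretinide, troglitazone or Elmiron to find when proliferation or hypoxia appears in tissues that develop hemangiosarcomas, which are tumours of endothelial cells. The vehicle mice carried no allele that the labels name and received none of the 3 compounds, and the labels do not name the vehicle, the age of the mice or the way the fat pad was dissected. The same 2 tissues of other vehicle mice, taken on day 29 with 5 arrays each (brown fat of mice 82 to 86, liver of mice 83 and 85 to 88), served as a separate set.

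Brown fat burns fuel to make heat. Its adipocytes hold many mitochondria, and uncoupling protein 1 (Ucp1) lets protons back across the inner mitochondrial membrane without making ATP, so that the energy of fatty acids and glucose is released as heat. Liver does the opposite kind of work: hepatocytes make glucose, ketone bodies, lipoproteins, bile acids, urea and most proteins of blood plasma, and break down amino acids and drugs. The blood vessels differ as well, with a continuous capillary bed in brown fat and an open, fenestrated sinusoid in liver. Kupffer cells, the resident macrophages of liver, lie in the sinusoid.

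Levels below are log2 of the deposited intensity of 1 probe set per gene, given as mean ± SD over 5 mice. A difference is brown fat minus liver in log2 units with its standard error (SE), so that 1 is 2-fold and positive values are higher in brown fat. Levels of different genes are not compared, because each probe set binds with its own strength. For Lipe, Esrrg, Sdha, Sucla2, Acacb, Fabp3, Slc25a44, Slc25a5, Cyp1b1, Plat, Egln3, Des and Atp5g2, named below, at least 1 further probe set pointed to the other tissue. Chemosensory receptor genes, which neither tissue is known to use, give a view of the array's floor: over 72 of them the 95th percentile lay between 7.11 and 7.52 in the 10 libraries. A difference with its lower level in that range is compressed by the floor. At the other end, the highest deposited intensity in the series was 39426 on the linear scale. Differences and SDs of bright genes, such as Ucp1, Scd1 and Cyp2e1 below, may be compressed there, which was not tested.

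The labels were first checked against marker genes. Ucp1 was at 14.96, 14.95, 14.91, 14.98 and 14.98 in brown fat of mice 41 to 45 and at 5.88, 6.25, 6.17, 5.92 and 6.09 in liver of mice 42 to 46. Every brown fat library was thus far above every liver, and the 5 brown fat values differed by less than 0.1. The mean over 23 hepatocyte genes was between 14 and 14.12 in the livers and between 6.64 and 6.73 in brown fat of mice 41, 43, 44 and 45.

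The library of brown fat mouse 42 stood apart from these, with a hepatocyte gene mean of 8.32 and albumin (Alb) at 10.56, against 6.67 to 7.53 in the other brown fat. Skeletal muscle genes were also high in all 5 brown fat libraries, to very different degrees. The mean of 16 muscle fibre genes was 9.24 in mouse 41, 12.39 in mouse 42, 12.92 in mouse 43, 12.55 in mouse 44 and 11.18 in mouse 45, against 6.11 to 6.31 in liver. On day 29 the library labelled brown fat of mouse 82 went against its label: Ucp1 was at 5.91 there and at 14.95 to 15.11 in the other 4, its brown fat gene mean was 7.55 against 12.04 to 12.24, and its hepatocyte gene mean was 11.58 against 6.52 to 6.79. Its adipocyte gene mean was 12.95, and its mean over 10 white fat genes was 10.32, against 7.57 to 8.08 in the other 4. In the 3 day 15 white fat arrays of the fenretinide study's vehicle mice that mean was 10.19 to 10.35. Leptin (Lep) was at 12.27 in the library of mouse 82 and at 6.55 to 8.90 in the other 4. The source of this library's RNA was not tested. Day 29 values are therefore given without that library as well.

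**Figure D1:**
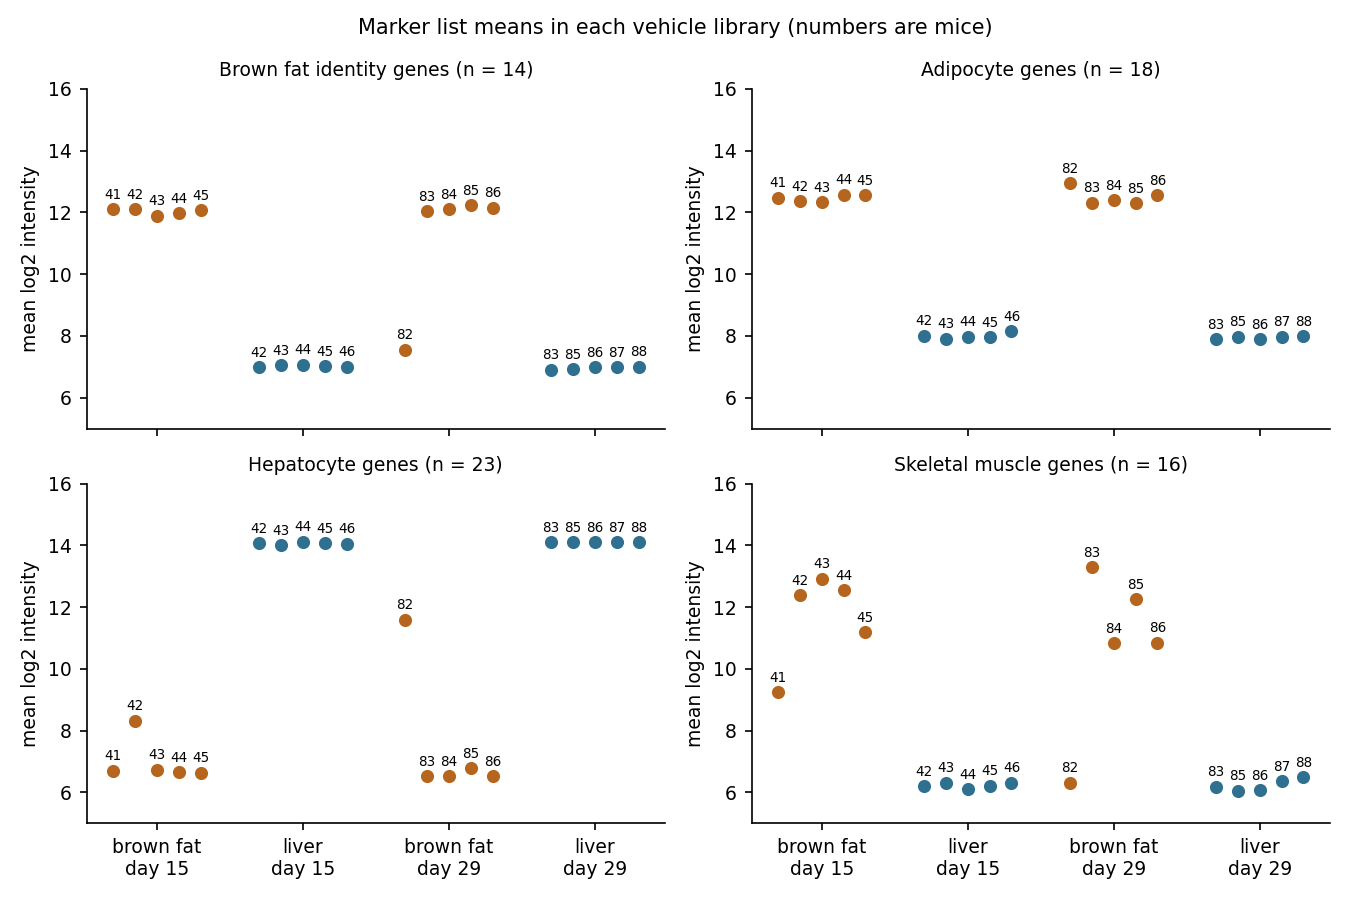
Mean log2 intensity of 4 marker lists (vertical axes) in each vehicle library, by tissue and day (horizontal axis); each point is 1 library and its number is the mouse. Brown fat of mouse 82 lies at 7.55 for brown fat genes, and the muscle gene mean of day 15 brown fat runs from 9.24 to 12.92 while every liver of that day is at 6.31 or below.

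The 2 tissues differed in most of the genes measured. limma's moderated test called 13179 of 18193 genes at a Benjamini-Hochberg adjusted p below 0.05, which is 72.4%, with 5713 higher in brown fat and 7466 higher in liver. That split depended on the processing: without the dimmer 50% of genes it was 4233 against 3314, and under quantile normalization 6214 against 5660. With so many calls, a call by itself says little about a gene, so lists are described by a stricter test, limma's treat, which asks whether a difference exceeds 2-fold. It called 2812 genes, or 15.5%: 1498 higher in brown fat (8.23% of genes) and 1314 higher in liver (7.22%). Groups of 5 were separate in many genes too: 10442 genes (57.4%) were called with no overlap between the tissues, and 10469 (57.5%) had no overlap. The median difference over all genes was -0.11.

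The largest differences ran to liver. A difference of 6 or more was measured for 198 genes higher in liver and 29 higher in brown fat. By size, the 12 leading genes of liver were Mug1 (-9.35 ± 0.51 SE), Ugt2b5, Cyp3a25, Tdo2 (-9.15 ± 0.36), Apof, Cyp2d10, Fabp1, Otc (-8.87 ± 0.08), Cyp7b1, Arg1, Fga and Hsd3b5. They encode a plasma proteinase inhibitor, drug and steroid enzymes, a fatty acid carrier and enzymes of amino acid breakdown. Brown fat of mouse 42 was high in some of them, and without it Mug1 differed by -9.95 and Fga by -9.49. The 12 leading genes of brown fat were Adipoq (9.30 ± 0.19), Cidea (9.08 ± 0.10), Ucp1 (8.89 ± 0.07), Tnnc2, Otop1, Cidec, Cox8b, Prkar2b, Pdk4, Acta1, Ptger3 and Acot11. Tnnc2 and Acta1 are skeletal muscle genes and moved with the muscle list described above: Tnnc2 was at 11.02 in mouse 41 and at 13.40 to 14.78 in the other 4 brown fat libraries, and its difference was 7.86 with mouse 41 and 8.51 without it.

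Of 14 measured genes of brown fat thermogenesis and identity, 12 were past 2-fold higher in brown fat and none in liver, with a median difference of 5.24, and the same number passed without mouse 42 and with brown fat of mice 41 and 45 alone. After Ucp1 and Cidea, a lipid droplet protein, came Otop1, a proton channel gene, at 12.11 ± 0.03 against 4.27 ± 0.17. Cox8b and Cox7a1, subunit forms of cytochrome c oxidase, differed by 7.43 ± 0.08 and 6.21 ± 0.15. Acot11, a thioesterase, differed by 6.99 ± 0.09 and the potassium channel gene Kcnk3 by 5.57.

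Control genes of the same list had smaller differences and more spread among mice. Dio2, which makes active thyroid hormone inside the cell, was at 9.33, 10.80, 9.32, 10.10 and 10.41 in brown fat and at 6.32 to 6.54 in liver, a difference of 3.56 ± 0.25. Ppargc1a, a coactivator of mitochondrial biogenesis, was at 10.07 ± 0.43 against 7.38 ± 0.22, a difference of 2.69 ± 0.18. None of the 5 brown fat values overlapped liver for either gene.

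A pair of members did not follow the list. Elovl3, a fatty acid elongase often used as a brown fat marker, was slightly lower in brown fat, at 13.56 ± 0.14 against 14.06 ± 0.22 (-0.51 ± 0.10, adjusted p = 0.00093 by limma), and the groups overlapped. In the 3 white fat arrays of the fenretinide study's vehicle mice it was at 7.01. Prdm16, a transcriptional regulator of brown fat fate, was at 6.91 ± 0.11 against 6.74 ± 0.16, within the floor range in both tissues and not called (adjusted p = 0.107 by limma). The mean of its 4 probe sets differed by 1.56, so the reading of Prdm16 rests on the probe set.

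Adipocyte genes as a class were higher in brown fat, with 17 of 18 past 2-fold and a median of 4.59. Adipoq (adiponectin) was at 14.46 to 14.57 in brown fat and at 4.81 to 6.05 in liver. Cidec, a lipid droplet fusion protein, differed by 7.45 ± 0.18, Cd36, a fatty acid transporter, by 6.51 ± 0.18, and the hormone-sensitive lipase gene Lipe by 5.54. Leptin (Lep) was at 9.10, 6.87, 7.40, 9.41 and 8.71 in brown fat of mice 41 to 45 and at 5.95 to 6.26 in liver. It varied more between mice (SD 1.11) than any adipocyte gene named above, and was high in mice 41, 44 and 45.

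White fat of vehicle mice helps to place these genes, although white fat came from another study, so that tissue and study cannot be told apart. Across its 3 arrays Ucp1 was at 5.83 to 7.62, Otop1 at a mean of 4.63, Acot11 at 6.54 and Cox7a1 at 7.34, near their liver levels. Adipoq was at 14.96 and Cidec at 14.51, at or above brown fat. Cidea was at 9.04 and Cox8b at 11.31, between liver and brown fat.

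Mitochondrial genes were higher in brown fat, by amounts that differed between steps of the pathway. Of 15 genes of the citric acid cycle and pyruvate dehydrogenase, 13 were past 2-fold higher in brown fat and none in liver, with a median of 1.88. With brown fat of mice 41 and 45 alone, and so fewer arrays, 11 were past 2-fold and the median was 1.93. Idh3a, the catalytic subunit of isocitrate dehydrogenase, was at 13.96 ± 0.03 against 10.82 ± 0.07, a difference of 3.14 ± 0.05. Ogdh, of 2-oxoglutarate dehydrogenase, differed by 3.12 and Cs, citrate synthase, by 2.78 ± 0.07. Suclg2, the GTP-forming subunit of succinyl-CoA ligase, went the other way by a small amount (-0.26) while its partner Sucla2, the ATP-forming subunit, was higher in brown fat by 1.46.

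Respiratory chain and ATP synthase subunits had a smaller shift. Of 25 measured, 24 were called higher in brown fat, but only 5 were past 2-fold, and the median was 0.81. With brown fat of mice 41 and 45 alone, and so fewer arrays, 2 were past 2-fold and the median was 0.82. Ndufs1, of complex I, had the largest difference among those higher in brown fat, at 2.0 ± 0.06, with brown fat at 13.54 to 13.60 and liver at 11.37 to 11.67. Cycs, cytochrome c, differed by 1.33 and Sdha, of complex II, by 1.24. Cox8a was bright in both tissues, at 14.78 in brown fat and 13.97 in liver. Compression of such differences at the top of the scale was not tested.

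Atp5g1, which encodes subunit c of the ATP synthase rotor, was the exception. It was at 9.20, 11.51, 11.91, 11.49 and 10.14 in brown fat of mice 41 to 45 and at 13.41 to 13.50 in liver, a difference of -2.60 ± 0.42 (adjusted p = 0.000149 by limma). Its order among the brown fat libraries was nearly that of the muscle gene Ckm, at 10.59, 13.98, 14.59, 14.29 and 12.75. In mouse 41, the library with the least muscle RNA, Atp5g1 was 4.25 below the mean of the livers. Other genes of the same subunit did not share this gap: Atp5g2 was higher in brown fat by 0.52 ± 0.06 and Atp5g3 lower by a small amount (-0.30 ± 0.05). Atpif1, the inhibitory factor of ATP synthase, differed by -1.39 ± 0.11, although 1 of its 3 probe sets pointed to brown fat. Atp5g2, Atp5g3 and Atpif1 were chosen after their values were seen.

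Among fatty acid oxidation genes the liver form of the entry enzyme went against the rest. Of 17 mitochondrial genes 16 were called higher in brown fat and 7 were past 2-fold, with Hadhb (1.85), Acadl (1.8 ± 0.06), Hadha (1.62) and Cpt2 (1.61) leading. Cpt1a, the liver form of the carnitine palmitoyltransferase that admits fatty acids to mitochondria, was lower in brown fat in every library, at 9.09 to 9.28 against 12.58 to 12.78 (-3.54 ± 0.06). Its partner form Cpt1b is not analysed here, so the entry step as a whole was not compared. Ketone body genes divided by direction of flow: Oxct1, which uses ketone bodies, differed by 5.16 ± 0.09, and Bdh1, which makes 3-hydroxybutyrate in liver, by -6.18 ± 0.53. Bdh1 also followed muscle RNA, at 4.81 and 5.31 in brown fat of mice 41 and 45 and at 7.46 to 7.76 in mice 42 to 44. Peroxisomal oxidation genes did not rise with the mitochondrial ones: none of 10 was past 2-fold higher in brown fat, against 8.23% of all genes. In liver 3 were past 2-fold higher, against 7.22% of all genes, led by Acox2 (-4.89), which shortens bile acid precursors.

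The muscle RNA was measured gene by gene. Of 16 muscle fibre genes 15 were past 2-fold higher in brown fat, with a median of 5.39 that fell to 2.84 in mouse 41 alone, and Myh1 was not called (0.11), although the mean of its 3 probe sets differed by 5.29. Ckmt2, the mitochondrial creatine kinase, was at 7.36, 11.43, 11.70, 11.45 and 9.69, and Pygm, muscle glycogen phosphorylase, at 7.80, 11.70, 12.87, 11.93 and 10.13. Both followed Ckm, and so did Eno3 and Cox6a2. In mouse 41 alone the differences from liver were 2.81 for Ckmt2, 1.07 for Pygm and 0.74 for Cox6a2, against 5.78, 4.15 and 3.29 over the 5 mice. Without mouse 41 they were 6.52, 4.92 and 3.93, and Ckm went from 5.86 to 6.52. Ucp1, Cox8b, Hk2 and Gys1 had an SD of 0.07 or less over the same libraries. In all, 157 genes had an SD of 1 or more in brown fat and 5 in liver, while the median SD was 0.13 in each tissue. How much of any brown fat gene's level comes from muscle cells was not tested.

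**Figure D2:**
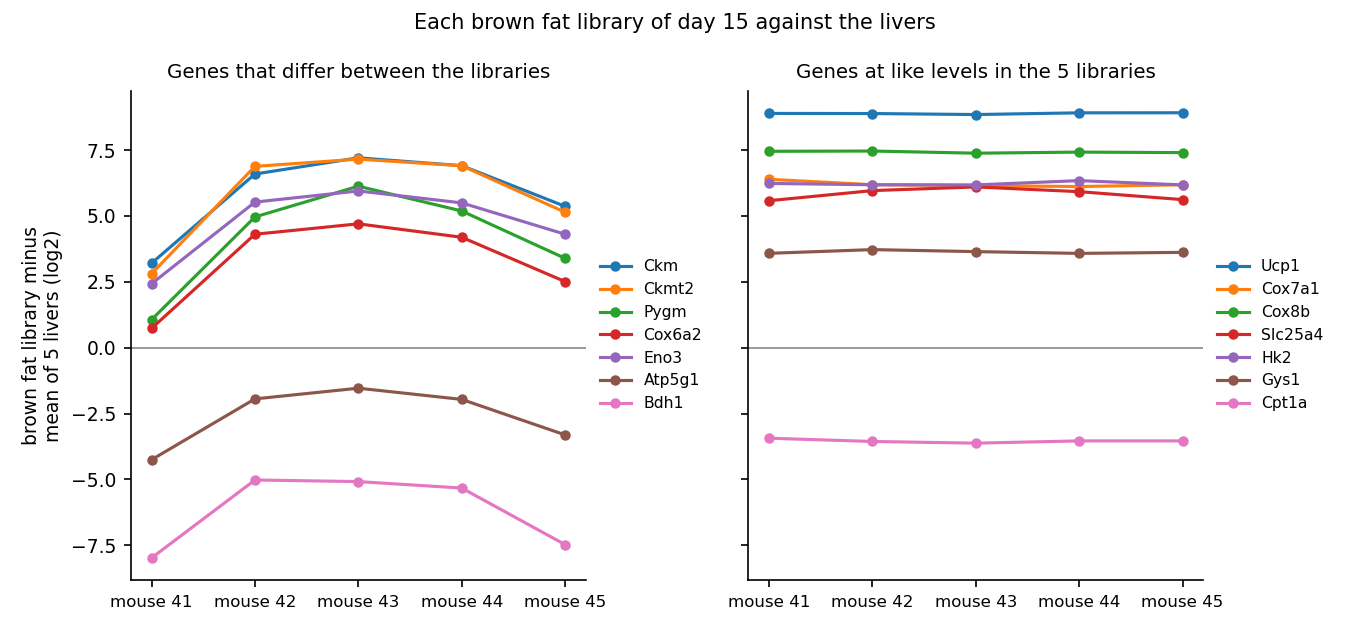
Each brown fat library of day 15 minus the mean of the 5 livers in log2 (vertical axis), for 7 genes whose value differed between libraries and 7 at like levels, chosen after their values were seen; points are libraries and lines join 1 gene. Ckm, Pygm and Atp5g1 are lowest in mouse 41 and highest in mouse 43, while Ucp1 lies about 8.89 above liver in all 5.

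Many enzymes, carriers and receptors come in paired forms, here listed as a liver form and another form. In some pairs, such as those of cytochrome c oxidase, the form listed for liver is the general one. Of 30 such pairs, 21 had both members measured. The other form was past 2-fold higher in brown fat in 20 of 21 pairs. The form listed for liver was past 2-fold higher in liver in 10, so that 9 pairs crossed over. With brown fat of mice 41 and 45 alone, the libraries with the least muscle RNA, the first count was 18 and the second 10. The forms lost were Pygm, whose difference went from 4.15 to 2.23, and Cox6a2, from 3.29 to 1.62. Pfkm, of muscle phosphofructokinase, was at 2.92 over the 5 mice and 1.95 in mouse 41 alone. Fabp1 and Fabp4, fatty acid carriers, differed by -8.94 ± 0.60 and 5.76 ± 0.07, and Fabp1 by -9.65 without mouse 42. The glucose transporters Slc2a2 and Slc2a4 (GLUT4, the insulin-responsive form) differed by -7.68 ± 0.25 and 3.79 ± 0.11. Glycerol channels Aqp9 and Aqp7 differed by -6.68 and 4.33, fructose bisphosphatases Fbp1 and Fbp2 by -7.40 and 3.28, pyruvate kinases Pklr and Pkm by -1.57 and 6.17, and deiodinases Dio1 and Dio2 by -7.33 and 3.56.

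In arginase the liver form Arg1 differed by -8.81 and the other form, Arg2, by -0.60, so that this pair did not cross over. In the other 11 pairs the form listed for liver was not past 2-fold higher in liver. Of the general forms of cytochrome c oxidase, Cox7a2 was at 0.28 and Cox8a at 0.81, beside their partners Cox7a1 at 6.21 and Cox8b at 7.43. The adenine nucleotide translocases, which exchange ATP and ADP, differed as widely, with Slc25a5 at 0.12 and Slc25a4 at 5.84. Liver glycogen synthase, Gys2, was at 10.87 ± 0.12 in brown fat against 11.07 ± 0.07 in liver, and liver glycogen phosphorylase, Pygl, was higher in brown fat by 0.84 ± 0.06. Gys1, the general glycogen synthase, was higher by 3.63 ± 0.07. Liver phosphofructokinase, Pfkl, was itself higher in brown fat by 3.57 ± 0.08, with all 3 of its probe sets in the same direction, as was acetyl-CoA carboxylase Acaca (4.24 ± 0.08) beside Acacb (3.96 ± 0.08).

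**Figure D3:**
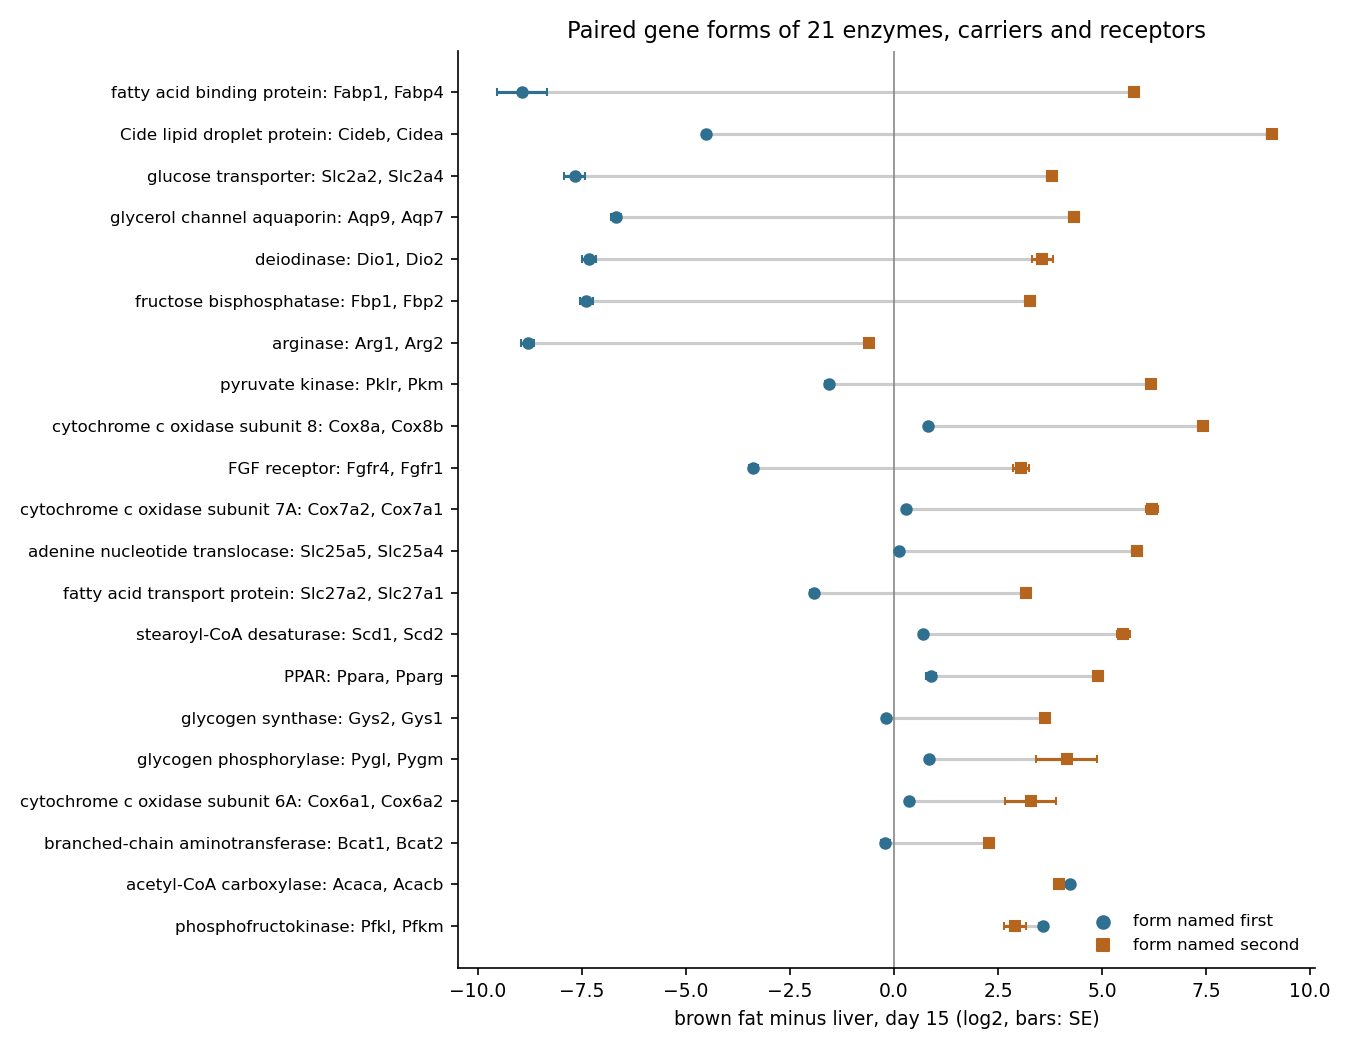
Brown fat minus liver on day 15 in log2 (horizontal axis, bars are SE) for the 21 pairs of gene forms with both members measured. Circles are the form named first, which is the form listed for liver, and squares the form named second. In 19 pairs the square lies to the right of the circle, among them Pygm and Cox6a2, which were not past 2-fold with brown fat of mice 41 and 45 alone; the exceptions are acetyl-CoA carboxylase (4.24 and 3.96) and phosphofructokinase (3.57 and 2.92).

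Lipid synthesis and storage were higher in brown fat, and cholesterol and lipoprotein genes higher in liver. Of 14 fatty acid synthesis genes 11 were past 2-fold higher in brown fat and none in liver, with a median of 2.08. Fasn, fatty acid synthase, was at 14.68 ± 0.06 against 11.48 ± 0.32, Elovl6 differed by 3.52 and Scd2, a desaturase, by 5.52 ± 0.15. Scd1, the main liver desaturase, differed by 0.69 ± 0.06. Mlxipl (ChREBP), a sugar-sensing regulator of these genes often listed with liver, was higher in brown fat by 2.37 ± 0.08.

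The listed genes of lipid uptake from blood were mostly higher in brown fat too. Of 10 genes of lipoprotein lipase and fatty acid uptake 7 were past 2-fold higher in brown fat: Lpl itself by 2.99 ± 0.14, its capillary anchor Gpihbp1 by 2.14, Vldlr by 5.57 ± 0.13 and the fatty acid binding protein Fabp3 by 6.81 ± 0.08. Lmf1, which helps to fold lipase, was the only one called higher in liver (-0.43). The list leaves out the liver forms Fabp1 (-8.94) and Slc27a2 (-1.93), a fatty acid transport protein, both past 2-fold higher in liver. Among 18 lipolysis and droplet genes 10 were past 2-fold higher in brown fat, with Plin4 at 5.52 and Pnpla2, adipose triglyceride lipase, at 3.62. Cideb, the Cide protein of liver, was lower in brown fat by a wide margin (-4.52 ± 0.06).

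Of 18 genes of lipoprotein assembly and secretion 15 were past 2-fold higher in liver, led by Apob (-8.23), the structural protein of very-low-density lipoprotein. Pltp, phospholipid transfer protein, went against the list, at 11.73 ± 0.05 in brown fat and 9.89 ± 0.10 in liver (1.83 ± 0.06). Cholesterol synthesis genes had 6 of 18 past 2-fold higher in liver and none in brown fat, with Ebp (-2.92 ± 0.08) and Msmo1 (-2.89 ± 0.09) at the top. The regulator of that pathway, Srebf2, differed by -0.59, and 3 members were not called.

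Hepatocyte functions made up the other end of the scale. Of 22 genes of amino acid breakdown 21 were past 2-fold higher in liver, with a median of -6.43. Tdo2, which opens the tryptophan ring, was at 4.66, 6.41, 4.06, 4.40 and 5.54 in brown fat and at 14.09 to 14.21 in liver. Mat1a, which makes S-adenosylmethionine, differed by -8.57 and Bhmt by -8.41. Among 7 urea cycle genes 6 were past 2-fold higher in liver, with Otc at -8.87, Arg1 at -8.81 and Cps1 at -8.05. The exception, Ass1, was at 5.73 and 5.82 on its only probe set, within the floor range in both tissues.

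RNA of genes for branched-chain amino acid breakdown differed in the other direction and by less, with a median of 0.77. Of 16 genes 13 were called higher in brown fat and none in liver, and 5 were past 2-fold, led by Bcat2 (2.29 ± 0.09), the mitochondrial aminotransferase, and Bckdk (2.22 ± 0.07), the kinase that restrains the pathway. Slc25a44, the mitochondrial carrier of these amino acids, differed by 0.77.

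Bile acid genes had 17 of 18 past 2-fold higher in liver, including Cyp7b1 (-8.84), the uptake carrier Slc10a1 (-7.85), the export pump Abcb11 (-6.93) and Cyp7a1 (-4.81), the rate-limiting enzyme. Klb, the coreceptor for FGF19-class hormones, was the one member called higher in brown fat, by 0.41 ± 0.11, and its 2 probe sets disagreed. Glucose output genes had 7 of 13 past 2-fold higher in liver and none in brown fat. Fbp1 (-7.40) and Gckr (-4.92), the glucokinase regulator, were among them, and G6pc, glucose 6-phosphatase, named after its value was seen, differed by -6.04 ± 0.26. Pck1, which also feeds glycerol synthesis in fat, was called higher in brown fat by 0.57 ± 0.12, with brown fat at 13.52 to 13.68 and liver at 12.72 to 13.53, so that the groups overlapped, and 1 of its 3 probe sets pointed to liver.

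Drug metabolism genes had 15 of 18 past 2-fold higher in liver, with Cyp3a11 (-8.10), Cyp1a2 (-7.92) and Cyp2c29 (-7.65) leading; without mouse 42 Cyp3a11 differed by -8.77 and Cyp2c29 by -8.42. Cyp1b1 (1.83 ± 0.09) and Cyp4b1 (1.38 ± 0.11), P450 enzymes found outside liver, were higher in brown fat, Cyp4b1 no longer past 2-fold without mouse 42. Cyp2e1 had a small difference for its class (-1.53 ± 0.13), with brown fat at 12.83 to 13.64 and liver at 14.78 to 14.83.

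Clotting and complement proteins come from hepatocytes, and most of their genes were higher in liver. Of 26 genes of coagulation and fibrinolysis 18 were past 2-fold higher in liver, with a median of -6.52. Fga, the fibrinogen alpha chain, was at 4.64, 8.42, 5.65, 4.72 and 4.93 in brown fat and at 14.42 to 14.50 in liver, and the high value is mouse 42. Of 19 complement genes 15 were past 2-fold higher in liver, led by C4bp (-8.39), Mbl2 (-8.12) and C8a (-7.85). None was past 2-fold higher in brown fat, and of the 3 subunits of C1q, made by macrophages, C1qa and C1qb were called higher in brown fat (0.61 and 0.54) and C1qc was not (0.33).

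Of the 26 genes 5 were called higher in brown fat, and 3 of these were past 2-fold. F3 (tissue factor) was at 9.11 ± 0.40 against 6.02 ± 0.21, a difference of 3.08 ± 0.17. Thbd (thrombomodulin, an endothelial anticoagulant) differed by 3.12 ± 0.12 and F13a1, a transglutaminase subunit of macrophages, by 4.43 ± 0.15. Plat, the tissue plasminogen activator, and Vwf, von Willebrand factor, were called higher in brown fat by 1.10 and 0.72 but not past 2-fold. F8, also made by endothelium, was lower in brown fat (-1.14), and Tfpi was not called (-0.15).

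Sequences before the start sites of some of these genes are shown as examples. The liver genes were grouped only by their direction in this comparison, and shared regulation was not tested. RefSeq (build GRCm38.p6) gives a window of 250 bases before and 50 after each start, and 14452 of the 18193 genes had 18109 such windows, some genes having several. On both strands 9 motifs were searched. The letters TATAAA, the TATA box, were on either strand in 12.9% of the 1336 windows of genes past 2-fold higher in liver, 8.98% of the 1581 windows of genes past 2-fold higher in brown fat and 9.77% of all. TTGCNNAA, a form of the C/EBP site, was in 12.4%, 9.55% and 9.39%. The 250 bases before the start are printed below, 5′ to 3′, for 3 liver genes, Alb and the leading genes Fga and Tdo2, and, for contrast, 2 leading brown fat genes; capitals mark a match, on either strand, to one of these motifs or to the CCAAT box, and the matches do not overlap here.
Alb (chr5:90460620-90460869, plus strand): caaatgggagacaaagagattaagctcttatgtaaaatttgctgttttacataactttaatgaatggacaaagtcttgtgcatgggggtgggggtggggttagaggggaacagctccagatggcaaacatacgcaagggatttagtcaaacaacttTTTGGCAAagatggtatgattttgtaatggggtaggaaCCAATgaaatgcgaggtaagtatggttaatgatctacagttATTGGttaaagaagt
Fga (chr3:83025903-83026152, plus strand): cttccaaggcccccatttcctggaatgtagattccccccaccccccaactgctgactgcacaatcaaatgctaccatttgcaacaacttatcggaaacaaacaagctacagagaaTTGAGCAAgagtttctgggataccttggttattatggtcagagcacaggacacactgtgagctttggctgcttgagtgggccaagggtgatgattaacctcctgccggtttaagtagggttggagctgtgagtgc
Tdo2 (chr3:81975729-81975978, minus strand): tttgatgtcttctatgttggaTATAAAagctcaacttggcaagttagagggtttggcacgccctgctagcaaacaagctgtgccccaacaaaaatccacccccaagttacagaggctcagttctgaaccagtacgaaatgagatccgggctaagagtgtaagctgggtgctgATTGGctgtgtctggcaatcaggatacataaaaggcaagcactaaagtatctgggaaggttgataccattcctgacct
Adipoq (chr16:23146286-23146535, plus strand): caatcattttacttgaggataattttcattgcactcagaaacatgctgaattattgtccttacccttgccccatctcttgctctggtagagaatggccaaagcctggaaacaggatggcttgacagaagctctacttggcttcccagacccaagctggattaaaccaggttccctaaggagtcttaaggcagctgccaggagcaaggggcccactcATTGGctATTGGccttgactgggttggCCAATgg
Ucp1 (chr8:83290098-83290347, plus strand): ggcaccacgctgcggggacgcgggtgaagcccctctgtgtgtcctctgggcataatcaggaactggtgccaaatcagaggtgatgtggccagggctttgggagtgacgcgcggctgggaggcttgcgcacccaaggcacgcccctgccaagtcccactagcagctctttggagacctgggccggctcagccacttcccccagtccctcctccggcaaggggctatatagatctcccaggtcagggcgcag

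Alb and Fga each hold TTGCNNAA, Alb also holds CCAAT, Tdo2 holds TATAAA and CCAAT, Adipoq holds CCAAT only, and none of the 3 is in the printed Ucp1 window. CCAAT was in 40.0% of liver, 33.7% of brown fat and 37.4% of all windows. Other motifs were less frequent in liver windows: GGGCGG, the GC box, was in 49.6% of liver, 60.5% of brown fat and 52.3% of all windows, and the NRF1 site in 5.24%, 6.96% and 7.43%. TGACGTCA, the CRE, was in 1.20%, 2.53% and 2.49%. The HNF4 site CAAAGTCCA was in 1.72%, 0.506% and 0.491%, and the DR1 and ERR elements were each in under 1% of windows of every kind. A match describes letters and is not evidence of binding.

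Transcription factors also differed between the tissues. Of 15 liver factors 12 were past 2-fold higher in liver, including Foxa3 (-6.98), Hnf4a (7.87 ± 0.06 against 13.42 ± 0.08, -5.55 ± 0.06) and Nr1h4 (-4.86), the bile acid receptor. Of 20 factors of brown adipocytes 11 were past 2-fold higher in brown fat and none in liver, with Ebf2 (4.91), Pparg (4.90 ± 0.08), Zic1 (3.84) and Esrrg (3.70) leading. Klf15, a glucocorticoid-induced factor, was the one called higher in liver (-1.07 ± 0.14), and 4, Prdm16 among them, were not called.

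Nuclear receptors are of interest because fenretinide is a retinoid and troglitazone binds PPARγ. Pparg was at 12.55, 12.64, 12.50, 12.35 and 12.52 in brown fat and at 7.45 to 7.78 in liver. Ppara, the fatty acid receptor often named for liver, was higher in brown fat, at 11.57 to 11.99 against 10.62 to 11.22 (0.90 ± 0.12), with no overlap and all 3 probe sets in that direction. Rxra, the common partner of these receptors, was lower in brown fat, at 9.83 ± 0.13 against 11.73 ± 0.16 (-1.91 ± 0.09), while Rxrg was higher (9.25 ± 0.06 against 7.65 ± 0.14, 1.60 ± 0.07). Among retinoic acid receptors Rarb was higher in brown fat (2.11 ± 0.11) and Rara lower by a small amount (-0.43 ± 0.10), with brown fat at 6.95 to 7.28 near the floor. The xenobiotic receptors Nr1i2 (PXR) and Nr1i3 (CAR) differed by -3.41 ± 0.10 and -4.73 ± 0.14.

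Retinoid handling genes had 8 of 15 past 2-fold higher in liver, with Rdh16 (-5.66), Aldh1a1 (-4.45), Cyp26a1 (-3.46) and Lrat (-3.19), which stores retinol as ester in stellate cells. Rbp7, a retinol binding protein of fat capillaries, was the single member past 2-fold higher in brown fat (5.53 ± 0.22). Rbp4, the plasma carrier, was at 13.46 ± 0.13 in brown fat and 14.70 ± 0.01 in liver.

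Secreted factors and receptors also divided. Liver led in Igfbp2 (-8.11), Hamp (-7.73), the iron hormone hepcidin, Agt (-5.14 ± 0.10), angiotensinogen, Igf1 (-3.96 ± 0.16) and Fgf21 (-1.65 ± 0.14). Brown fat led in Adipoq, Retn (4.84), Nrg4 (4.08 ± 0.13), a secreted growth factor of brown fat, Lep and Fst (1.83). Of 16 hormone receptors 5 were past 2-fold higher in liver, led by Gcgr (-4.38 ± 0.06), the glucagon receptor, and Egfr (-4.12 ± 0.19), and 2 in brown fat, Npr3 (3.16 ± 0.18), which clears natriuretic peptides, and Fgfr1 (3.05 ± 0.19). Over all genes 7.22% were past 2-fold higher in liver and 8.23% in brown fat. Insr, the insulin receptor, was at 10.57 ± 0.11 and 10.78 ± 0.20 and was not called (adjusted p = 0.0667). The β-adrenergic receptors are not analysed here.

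Endothelial markers tell how the vessel beds of the 2 tissues appeared on these arrays. Of 24 general endothelial genes 14 were past 2-fold higher in brown fat and none in liver, with a median of 1.68. Pecam1 (CD31) was at 9.91, 9.72, 9.67, 9.77 and 9.82 in brown fat and at 6.60 to 6.96 in liver, within the floor range (3.02 ± 0.08). Cd34 differed by 4.0 ± 0.12, Sox17 by 3.12 and Emcn by 2.89 ± 0.11. Kdr, the main VEGF receptor, differed less, at 10.59 ± 0.08 against 9.43 ± 0.13 (1.16 ± 0.07). Plvap, the diaphragm protein of fenestrae, was the one general marker called higher in liver (-1.05 ± 0.09). Whole tissue was measured, so more cells of a type and more RNA per cell cannot be told apart.

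Genes of the capillaries of fat and muscle were higher still, with 9 of 10 past 2-fold higher in brown fat and a median of 3.59. Cav1 (caveolin) differed by 5.96, Timp4 by 4.31 and Car4 by 3.94. These genes mark vessels of muscle as well, and Cd36 is also an adipocyte gene. Brown fat of mouse 41, with the least muscle RNA, gave a median of 3.64.

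Sinusoidal endothelial genes went to liver in 7 of 12 cases past 2-fold, with none past 2-fold in brown fat. Stab2, a scavenger receptor of sinusoids, was at 6.10 to 6.43 in brown fat and 9.37 to 9.88 in liver (-3.35 ± 0.10). Clec4g differed by -5.42 ± 0.10 and Dnase1l3 by -4.18 ± 0.18. Lyve1, shared with lymphatic vessels and some macrophages, was called higher in brown fat (0.92 ± 0.20), from 8.28 in mouse 41 to 9.59 in mouse 43, against 7.75 to 8.15 in liver.

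**Figure D4:**
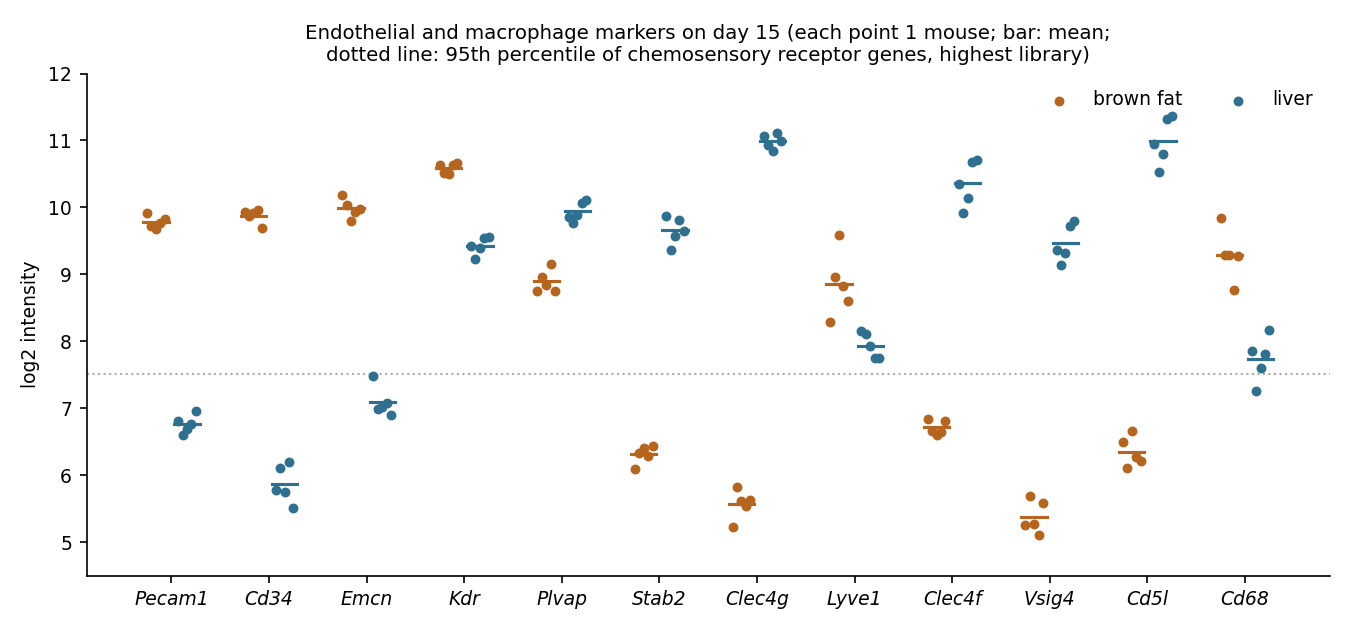
Log2 intensity (vertical axis) of 12 endothelial and macrophage markers on day 15 in 5 brown fat and 5 liver libraries; each point is 1 mouse and bars are means. Pecam1, Cd34, Emcn and Kdr lie higher in brown fat, Plvap, Stab2, Clec4g, Clec4f, Vsig4 and Cd5l higher in liver, and the dotted line is the highest 95th percentile of chemosensory receptor genes, 7.52.

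Other resident cells followed. Kupffer markers had 5 of 9 past 2-fold higher in liver, with Cd5l (-4.64 ± 0.16), Vsig4 (-4.09 ± 0.15) and Clec4f (-3.65 ± 0.14) all within the floor range in brown fat. General macrophage markers had 3 of 10 past 2-fold higher in brown fat, Lgals3 (2.58), Lyz2 (1.62) and Cd68 (1.56 ± 0.19), and 2 without mouse 42. The median of these 10 was 0.70 on day 15 and -0.11 on day 29 without mouse 82, where 4 were called higher in brown fat and 2 in liver, against 7 and 0 on day 15. Hepatic stellate markers split, with Colec11 (-5.77) and Reln (-3.37 ± 0.09) higher in liver and the mural cell genes Pdgfrb (2.55) and Rgs5 (1.99) higher in brown fat. Des, desmin, was higher too (2.86 ± 0.36), but it is also a muscle gene and ran from 9.78 in mouse 41 to 12.10 in mouse 43. Fibroblast and matrix genes had 13 of 14 past 2-fold higher in brown fat, led by Col1a1 (5.54 ± 0.31), at 13.55 in mouse 43 and 11.6 to 11.98 in the rest. Fn1, fibronectin, which hepatocytes secrete, was past 2-fold higher in liver (-2.73 ± 0.16).

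Angiogenic signals were mostly higher in brown fat. Of 24 ligands and receptors 10 were past 2-fold higher there and 1 in liver. Vegfa was at 11.76, 11.79, 11.41, 11.53 and 11.58 in brown fat and at 9.29 to 9.5 in liver (2.23 ± 0.08). Vegfb differed by 2.50 ± 0.08, Pdgfb by 3.15 ± 0.13, Angpt1 by 2.63 ± 0.11 and the VEGF receptor Flt1 by 2.51 ± 0.07. Fgf1 was the member past 2-fold higher in liver (-1.67).

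Hypoxia genes were not shifted as a block. Of 20 genes 5 were past 2-fold higher in brown fat and none in liver, with a median of 0.32. The 5 were Hk2 (6.22 ± 0.09), a hexokinase of insulin-responsive tissues, Egln1 (2.78 ± 0.07), an oxygen sensor, Vegfa, Epas1 (1.54 ± 0.07), the HIF-2α subunit found in endothelium, and P4ha1 (1.34). Hif1a differed by 0.83 ± 0.06. Slc2a1, Egln3 and Car9, common HIF targets, were called lower in brown fat by small amounts (-0.65, -0.39 and -0.35), in each the groups overlapped, and the mean of the probe sets of Egln3 was 0.10 higher in brown fat.

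Proliferation genes did not stand out from genes at large in the share past 2-fold. None of 20 cell cycle genes was past 2-fold higher in brown fat, 12 were not called at all and 2 were past 2-fold higher in liver. Over all genes 72.4% were called, 8.23% were past 2-fold higher in brown fat and 7.22% higher in liver. Mki67, a marker of cycling cells, was at 6.35 ± 0.65 in brown fat, with the highest value, 7.44, in mouse 43, and at 5.92 ± 0.22 in liver, and was not called (adjusted p = 0.152 by limma). Both means lay below the floor's 95th percentile of 7.11 to 7.52, so this probe set says little about a difference. The pair higher in liver, Tk1 (-3.03 ± 0.09) and Rrm2 (-2.11 ± 0.23), make DNA precursors, and Cdk1, the mitotic kinase, differed by -0.79 ± 0.10.

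Among clock genes Per3 (2.33 ± 0.17) and Nfil3 (-1.64 ± 0.18) were the 2 of 15 past 2-fold. The share over all genes was 15.5%, so this count does not set clock genes apart. Dbp, a strongly cycling output gene, was at 8.79 to 10.98 in liver and 9.88 to 11.36 in brown fat, and was not called (adjusted p = 0.0561). Of common reference genes Actb differed by 0.12 ± 0.10 and was not called (adjusted p = 0.331), with 1 of its 2 probe sets in each direction, and Tbp and Actb were the 2 of 10 not called. Sdha was past 2-fold higher in brown fat by 1.24, a call lost with brown fat of mice 41 and 45 alone (1.23, adjusted p = 0.14 by limma's treat), and Gapdh is not analysed here.

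In the mice with both tissues the difference could be taken within the animal. Within mice 42, 43, 44 and 45 the difference was 9.07, 8.67, 8.81 and 9.06 for Ucp1. It was 4.91, 5.05, 4.86 and 4.90 for Pparg. For Stab2 it was -3.55, -2.96, -3.28 and -3.39. For Alb it was -4.59, -7.59, -8.47 and -8.39, so the value of mouse 42, whose brown fat had the high hepatocyte gene mean, was the smallest in size. Over all arrays Alb differed by -7.35, and by -8.04 without that library. Elovl3 was lower in brown fat within each of the 4 mice, by -0.39, -0.27, -0.83 and -0.51.

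On day 29, limma called 9226 genes (50.7%), 4185 higher in brown fat and 5041 higher in liver (27.7%), or 10132 (55.7%) without the library labelled brown fat of mouse 82. All 2812 genes past 2-fold on day 15 had the same sign on day 29, with that library or without it, and 2809 of them were called on day 29 without it. Without it Ucp1 differed by 8.97, Cidea by 9.17, Pparg by 4.72, Cpt1a by -3.72, Atp5g1 by -2.63, Alb by -8.18, Stab2 by -3.55, Pecam1 by 2.93 and Vegfa by 2.53, against 7.15, 7.96, 4.62, -3.24, -2.49, -6.65, -3.45, 3.14 and 2.26 with it. Ppara is a case where the library turned the sign, at 0.78 without it and -0.03 with it. The test of the difference between days, limma over all 20 arrays, called 0 genes, and 0 without mouse 82, with 364 and 830 genes at an unadjusted p below 0.05. The smallest adjusted p was 0.0509, for Meox2, a homeobox gene of capillary endothelium, whose difference was 3.24 on day 15 and 4.22 on day 29. Lyve1 and Folr2, higher in brown fat on day 15, differed by -0.15 and -0.09 on day 29 without mouse 82, and neither change between days was called.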

How the data were processed

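RNA of brown fat and liver was measured on Affymetrix mouse arrays, and the authors' deposited value table holds 1 linear intensity per probe set and array, made with RMA per the submitters' processing notes; the notes name neither a version of RMA nor which arrays were normalized together. RMA equalises arrays, which can shrink or shift differences between tissues as unlike as these. For this report log2 of each deposited intensity was taken, control probe sets were left out, and the brightest probe set on average stood for each gene, giving 18193 genes.

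Brown fat and liver were compared by linear models in limma 3.58.1 (R 4.3.3), with eBayes for any difference and treat for one beyond a log2 threshold of 1, each p adjusted by Benjamini-Hochberg over all genes at 0.05, on 5 arrays against 5. The same fit was made on day 29, and the difference between days over 20 arrays. The procedure was tested on simulated data with few changed genes and independent noise. These tissues differ in most genes, so that test does not gauge the counts given here. Arrays of a tissue came from different mice. No counts lie behind an intensity, so the number of arrays limits the precision. Array correlation was 0.9825 to 0.9948 within brown fat, 0.9935 to 0.9965 within liver and 0.8056 to 0.8266 between tissues.

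Named genes were the 12 largest differences in each direction, up to 3 called members of each list in each direction, members against their list, the paired forms and a few fixed genes; other list members named were chosen after their values were seen. The members and lists were chosen with earlier results of these data known. In all, 692 of 756 list entries were measured. Mice 42 to 45 gave both tissues, so the mouse pairs the samples by the labels; the deviations of a mouse's 2 arrays from their group means correlated at 0.0623, 0.0660, 0.0523 and 0.0954. Alternatives were quantile normalization, median centring, the mean of the probe sets, a filter on dim genes, an added 16, array weights, trended fits, the mouse as a block, other livers and each array left out.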

Additional observations from a re-analysis of the deposited data

Results flagged for a closer look

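In 33 of 436 groups of 5 libraries the highest or lowest library lay far from the others by Dixon's test (a gap above 0.71 of the group's range). Chance gives about 1 in 20 groups. The values in parentheses are log2 intensities of the library that stood apart. In brown fat of mouse 41 the values that stood apart were Cox7a1 (13.91), Cyp26a1 (6.43), Ebf2 (11.09), Gcgr (7.71), Meox2 (8.06) and Nr1h4 (5.96). In brown fat of mouse 42 the values that stood apart were Alb (10.56), Apob (7.45), Apof (6.54), Ass1 (5.60), Cd36 (13.93), Cyp2c29 (9.92), Cyp2d10 (5.67), Cyp3a25 (6.55), Elovl3 (13.79), Fabp1 (8.81), Fga (8.42), Hnf4a (7.77), Mbl2 (5.95), Mug1 (7.28) and Ugt2b5 (7.04). Ass1, Cd36 and Hnf4a were lower in this library than in the other brown fat, and the rest of these genes were higher. In brown fat of mouse 43 the values that stood apart were Col1a1 (13.55), Elovl6 (13.95) and Thbd (10.18). In brown fat of mouse 45 the values that stood apart were Nrg4 (11.43), Pltp (11.81) and Rbp4 (13.68). In liver of mouse 43 the values that stood apart were Actb (13.39), Aldh1a1 (14.16), Apob (13.42) and Dnase1l3 (9.44). In liver of mouse 44 the values that stood apart were Cyp4b1 (8.78) and Rgs5 (10.66). The hepatocyte gene mean of brown fat of mouse 42 was 8.32, against 6.64 to 6.73 in the other brown fat, and its part in these values was not tested.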

How the results depend on the processing

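No count of genes moved by more than 1.5 times in the other settings run, apart from these. Without the dimmer 50% of genes 7547 genes (56.1% higher in brown fat) were called on day 15 and 5530 on day 29, with fewer genes tested. The difference between days called 2 genes with array weights, 1 with 16 added to the value and 1 with the mouse as a random block. Leaving out each array gave 12639 to 13060 genes on day 15, 2713 to 2834 past 2-fold, 7997 to 10132 on day 29 and 0 to 1 between days. With the mouse as a random replicate block 13473 genes were called on day 15 and 2846 past 2-fold, and with the mouse as a fixed block 12715 and 2778. On day 29 these fits gave 8985 and 9554 genes, so that pairing moved no count by more than 1.5 times. Under quantile normalization the median over all genes moved from -0.11 to -0.003, and 52.3% of calls were higher in brown fat, against 43.3%. The sign turned with the setting "quantile normalization" for Ass1 (0.125). The sign turned with the setting "mean of the probe sets" for Actb (-0.0503), Egln3 (0.0982), Slc25a5 (-0.0756), Tbp (-0.0930), Tfpi (0.181). The sign turned with the setting "brown fat of mouse 41 alone" for Myh1 (-0.0200), Tbp (-0.0522), Tfpi (0.168). The sign turned with the setting "brown fat of mice 41 and 45 alone" for Myh1 (-0.0429). The cause of these changes was not tested. Differences with a level near the floor are compressed.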
